A study of Mus musculus with 7 samples.

Results

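The 36 genes examined here carry glucose from uptake to lactate, divert it into the pentose phosphate pathway, or belong to the response to low oxygen. A listed gene counted as measured where the array's annotation gave it a probeset naming that gene alone, and the brightest such probeset by mean over 7 arrays stood for the gene. By this rule 32 of the 36 members were measured, among 19938 genes in all, and no filter on low values was applied. The members were bright: 29 of the 32 lay at or above the 50th percentile of mean level, and 13 in the top 10 percent. Gpi1, Gapdh, Eno1 and G6pdx had no probeset naming them alone. They are not described further, except for Gapdh below and in the promoter counts, which include them.

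The samples were dendritic cells sorted from the lungs of female C57Bl/6 mice, wild type or lacking the transcription factor Irf3, with each Affymetrix Mouse Gene 1.0 ST array holding RNA from a pool of cells from 10 mice. The sort took CD11b+ conventional dendritic cells (cDC2s) as Cd11c+ Mhc2+ Cd11b+ Ly6c- Cd64- cells, 12 hours after treatment. There were 2 arrays of wild type cells after saline (PBS), 2 of wild type cells after 100 µg of house dust mite extract, and 3 of Irf3-deficient cells after the same dose of extract. PBS-treated Irf3-deficient cells were not analysed here, so a difference between the genotypes after mite extract cannot be split into a baseline part and a response part. The labels give neither the ages of the mice nor the kind of Irf3 allele.

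Values are log2 expression values, on which a difference of 1 is a 2-fold change, given with the standard error of the fit. A gene is said to have risen or fallen only where its adjusted p was under 0.05 in limma, a linear model fitted over all genes that shares the estimate of the spread between them (Benjamini-Hochberg adjustment over 19938 genes). Irf3 stood at 9.48 and 9.56 after PBS, 9.59 and 9.57 after mite extract in wild type cells, and 8.26, 8.13 and 8.30 in Irf3-deficient cells, 2.55-fold lower than in treated wild type cells (95% CI 2.18 to 2.99, adjusted p = 2.11e-06). Over all genes, the correlation was 0.995 to 0.997 within groups and 0.973 to 0.990 between groups. The markers of the sorted cell were present on every array: Itgax (CD11c) lay between 12.63 and 13.06, the class II gene H2-Ab1 between 14.14 and 14.29, Cd209a between 13.40 and 13.96, and Irf4, a factor of the cDC2 lineage, between 11.54 and 12.09. The levels of the 14 marker genes were not constant between groups. After mite extract 5 of the 14 fell and 1 rose in wild type cells, and 6 were higher and 1 lower in treated Irf3-deficient than in treated wild type cells. Itgam, which encodes the sort marker CD11b, had a mean of 12.07 after PBS, 11.01 in treated wild type cells and 11.73 in Irf3-deficient cells (-1.06 after mite extract, adjusted p = 1.94e-05, and 0.72 between treated genotypes, adjusted p = 0.000225). Ccr2, Clec10a and Mgl2 fell by 1.11, 0.68 and 0.56 after mite extract and were higher by 0.79, 0.60 and 0.59 in treated Irf3-deficient cells. The part of these shifts in the results below was not tested.

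Genes of other lung cells were also detectable, and each marker list held some that moved with the groups. Of 6 genes of cDC1s, another conventional dendritic cell type, 2 rose and 2 fell after mite extract in wild type cells. Between treated genotypes 1 was higher and 2 lower in Irf3-deficient cells. Of 7 measured T and NK cell genes, 3 rose and 0 fell, and 1 was higher and 3 lower. Of 3 measured erythrocyte and platelet genes, 0 rose and 1 fell, and 2 were higher and 0 lower. Of 12 measured genes of monocytes and interstitial macrophages, 10 fell and 2 rose after mite extract in wild type cells, and 8 were higher and 3 lower in Irf3-deficient than in wild type cells. Their summed level, as log2, was 15.42 and 15.76 after PBS, 14.24 and 14.75 in treated wild type cells and 15.09 to 15.22 in treated Irf3-deficient cells. Fcgr1, which encodes the CD64 used to gate cells out, was among the genes that rose, by 1.79 ± 0.18 on the log2 scale. Of 7 epithelial and endothelial genes, 5 fell and 0 rose after mite extract in wild type cells. Between treated genotypes 1 was higher and 1 lower in Irf3-deficient cells. The summed level of these 7 genes was 14.27 and 14.65 after PBS, 14.39 and 13.48 in treated wild type cells and 13.41 to 13.60 in Irf3-deficient cells. Scgb1a1, one of them, stood at 13.57 and 11.64 on the treated wild type arrays. Sftpc, a gene of alveolar epithelial cells, lay between 11.88 and 13.10. Its means were 13.09 after PBS, 12.51 in treated wild type cells and 11.98 in Irf3-deficient cells. Epcam, the 1 gene of the list higher in Irf3-deficient than in treated wild type cells, had means of 9.96, 9.02 and 10.80. That genotype difference was 1.78 (adjusted p = 8.61e-07). The part of these other cells in the results below was not tested, and fewer cells of a type and less RNA per cell cannot be told apart in such pools.

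Glycolysis splits glucose into pyruvate, which is turned into lactate and exported or is oxidised in mitochondria. The pentose phosphate pathway branches off after the hexokinase step and yields NADPH and ribose phosphate. When oxygen falls, the prolyl hydroxylases encoded by the Egln genes stop marking the Hif1a protein for degradation, and the stabilised factor switches on many glycolytic genes together with targets such as Bnip3 and Ero1a. Dendritic cells exposed to microbial products are known for a rapid turn towards glycolysis, much of it through enzyme activity and location, which transcript levels do not show.

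The hypoxia factor Hif1 binds a short core, ACGTG or GCGTG, and promoters of some members that moved together are shown first. RefSeq gave 49 promoters for 35 of the 36 members (not Slc2a3) on the GRCm38.p6 assembly, from 250 bases before to 50 after each start. On either strand, ACGTG stood in 25 of the 49 (51.0%), against 19.6% of all 32851 promoters of that table, and GCGTG in 29 (59.2%), against 32.4%. Either form stood in 40 (81.6%), against 43.8%. CACGTG, the E-box, which contains ACGTG, stood in 6 (12.2%), against 7.15%. The core of the interferon-stimulated response element, GAAA repeated after any 2 letters, stood in 0 of 49, against 3.44% of all promoters. Starts of the same gene were counted separately, and some of their windows overlapped. The members were listed for pathways in which Hif1 switches on many genes, so these shares do not test a link to Hif1. The promoters were not matched for base composition, and a match in letters is a description and not a binding site.

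The 250 bases before the start are printed 5′ to 3′ on the gene's own strand, with ACGTG and GCGTG on either strand in capitals. Bnip3 (chr7:138909507-138909756, minus strand), Egln1 (chr8:124949255-124949504, minus strand) and Ero1a (chr14:45318573-45318822, minus strand) were the hypoxia members that fell after mite extract in wild type cells and were higher in Irf3-deficient cells.
Bnip3: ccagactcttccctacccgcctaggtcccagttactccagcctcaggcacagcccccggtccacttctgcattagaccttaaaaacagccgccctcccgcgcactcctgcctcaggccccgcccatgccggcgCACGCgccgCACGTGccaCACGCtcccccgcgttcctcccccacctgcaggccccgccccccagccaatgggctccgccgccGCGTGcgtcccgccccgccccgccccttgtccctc
Egln1: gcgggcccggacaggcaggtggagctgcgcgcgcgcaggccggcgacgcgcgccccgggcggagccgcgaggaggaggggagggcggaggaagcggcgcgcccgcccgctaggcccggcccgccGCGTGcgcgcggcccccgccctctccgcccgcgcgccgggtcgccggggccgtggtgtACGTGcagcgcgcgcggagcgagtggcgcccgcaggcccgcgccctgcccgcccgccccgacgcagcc
Ero1a: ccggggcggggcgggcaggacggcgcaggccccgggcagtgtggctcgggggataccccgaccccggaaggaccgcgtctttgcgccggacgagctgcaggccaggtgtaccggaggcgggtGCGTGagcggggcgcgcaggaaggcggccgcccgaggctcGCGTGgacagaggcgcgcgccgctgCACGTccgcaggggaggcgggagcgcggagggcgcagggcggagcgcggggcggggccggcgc

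Eno2 (chr6:124769674-124769923, minus strand), Pfkfb3 (chr2:11502091-11502340, minus strand, and a further start at chr2:11553930-11554179, minus strand) and Taldo1 (chr7:141391910-141392159, plus strand) moved the other way in both comparisons.
Eno2: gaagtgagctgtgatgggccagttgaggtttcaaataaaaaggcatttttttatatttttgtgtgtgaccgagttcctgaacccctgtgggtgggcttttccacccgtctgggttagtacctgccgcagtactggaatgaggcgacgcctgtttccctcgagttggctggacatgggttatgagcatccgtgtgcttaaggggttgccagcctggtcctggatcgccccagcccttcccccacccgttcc
Pfkfb3 (start 1): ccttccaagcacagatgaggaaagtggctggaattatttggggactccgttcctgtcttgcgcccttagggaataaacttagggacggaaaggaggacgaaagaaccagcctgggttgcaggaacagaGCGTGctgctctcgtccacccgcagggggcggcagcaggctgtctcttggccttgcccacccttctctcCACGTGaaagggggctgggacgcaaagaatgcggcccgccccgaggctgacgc
Pfkfb3 (start 2): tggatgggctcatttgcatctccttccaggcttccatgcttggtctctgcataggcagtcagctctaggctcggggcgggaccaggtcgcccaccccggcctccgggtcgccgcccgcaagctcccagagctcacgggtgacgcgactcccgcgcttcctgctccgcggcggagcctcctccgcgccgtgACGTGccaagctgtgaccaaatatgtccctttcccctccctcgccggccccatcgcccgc
Taldo1: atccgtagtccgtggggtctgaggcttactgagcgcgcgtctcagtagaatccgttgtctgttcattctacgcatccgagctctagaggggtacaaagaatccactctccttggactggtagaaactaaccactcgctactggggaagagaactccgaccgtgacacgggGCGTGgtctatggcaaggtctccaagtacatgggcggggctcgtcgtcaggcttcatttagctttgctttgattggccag

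The hypoxia core therefore stood in promoters of both sets. In Bnip3 the matches lay 35 to 117 bases before the start and included an E-box, in Egln1 they lay 68 and 126 bases before it, and in Ero1a 63, 88 and 128 bases before it. In the set that moved the other way, Pfkfb3 held an E-box 53 bases and a GCGTG 122 bases before 1 start. Before its other start it held an ACGTG, at 60 bases. Taldo1 held a GCGTG 80 bases before its start, and the printed stretch of Eno2 held none. Tpi1 and Slc2a3 moved as the first set did and Pdk3 as the second, and their promoters are not printed. Over the whole 300 bases, the promoter of Tpi1 held neither form of the core, and that of Pdk3 held 1 ACGTG and 3 GCGTG.

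In wild type cells, 10 of the 32 members (31.2%) differed between mite extract and PBS, against 17.6% of all genes and 23.8% of the 13957 genes at or above the 30th percentile of mean level. Pfkfb3, Eno2, Pdk3 and Taldo1 rose, which is 4 members against 8.35% of all genes. Slc2a3, Aldoc, Tpi1, Egln1, Bnip3 and Ero1a fell, which is 6 members against 9.23% of all genes. The steps of the pathway did not move in 1 direction: the median log2 difference of the members was -0.19, against 0.03 over all genes, with a range from -1.23 for Slc2a3 to 1.29 for Eno2. The arrays of the 2 groups did not overlap for 24 members, against 52.6% of all genes.

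Treated Irf3-deficient cells differed from treated wild type cells in 12 of the 32 members (37.5%), against 19.7% of all genes and 26.9% of the genes at or above the 30th percentile. Slc2a3, Tpi1, Ldha, Slc16a1, Egln1, Bnip3 and Ero1a were higher in Irf3-deficient than in wild type cells (7 members, against 10.7% of all genes). Hk3, Pfkfb3, Eno2, Pdk3 and Taldo1 were lower (5 members, against 9.0%). The median difference was 0.05, against 0.00 over all genes, and the arrays did not overlap for 22 members, against 43.7% of all genes. With cyclic loess between arrays the split of called members was 4 higher and 6 lower, without Tpi1, Ldha and Egln1 and with Pkm. This comparison uses the same treated wild type arrays as the one above with the opposite sign, so values of a member in the 2 comparisons are given side by side and are not independent.

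Treated Irf3-deficient cells differed from PBS-treated wild type cells in 6 of the 32 members (18.8%), against 10.8% of all genes and 14.8% of those at or above the 30th percentile. Pfkp and Slc16a1 were higher (2 members, against 5.89%), and Slc2a3, Aldoc, Pdk1 and Taldo1 were lower (4 members, against 4.91%). The median difference was -0.02, against 0.04 over all genes, and the arrays did not overlap for 14 members, against 39.1% of all genes. Treatment and genotype both differ in this comparison and cannot be told apart. Its count rested on single arrays: 3 members passed without PBS array 1, without PBS array 2, without Irf3-deficient array 2 or without Irf3-deficient array 3. With arrays centred on their medians 1 member was higher and 4 were lower, and with cyclic loess 0 were higher and 4 lower. Without an estimate of spread shared between genes, 1, 2 and 0 members passed in the 3 comparisons, in the order above. Across the 3 comparisons, 15 members passed in at least 1 and 17 in none, and no log2 difference among these 17 exceeded 0.34 in size.

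**Figure D1:**
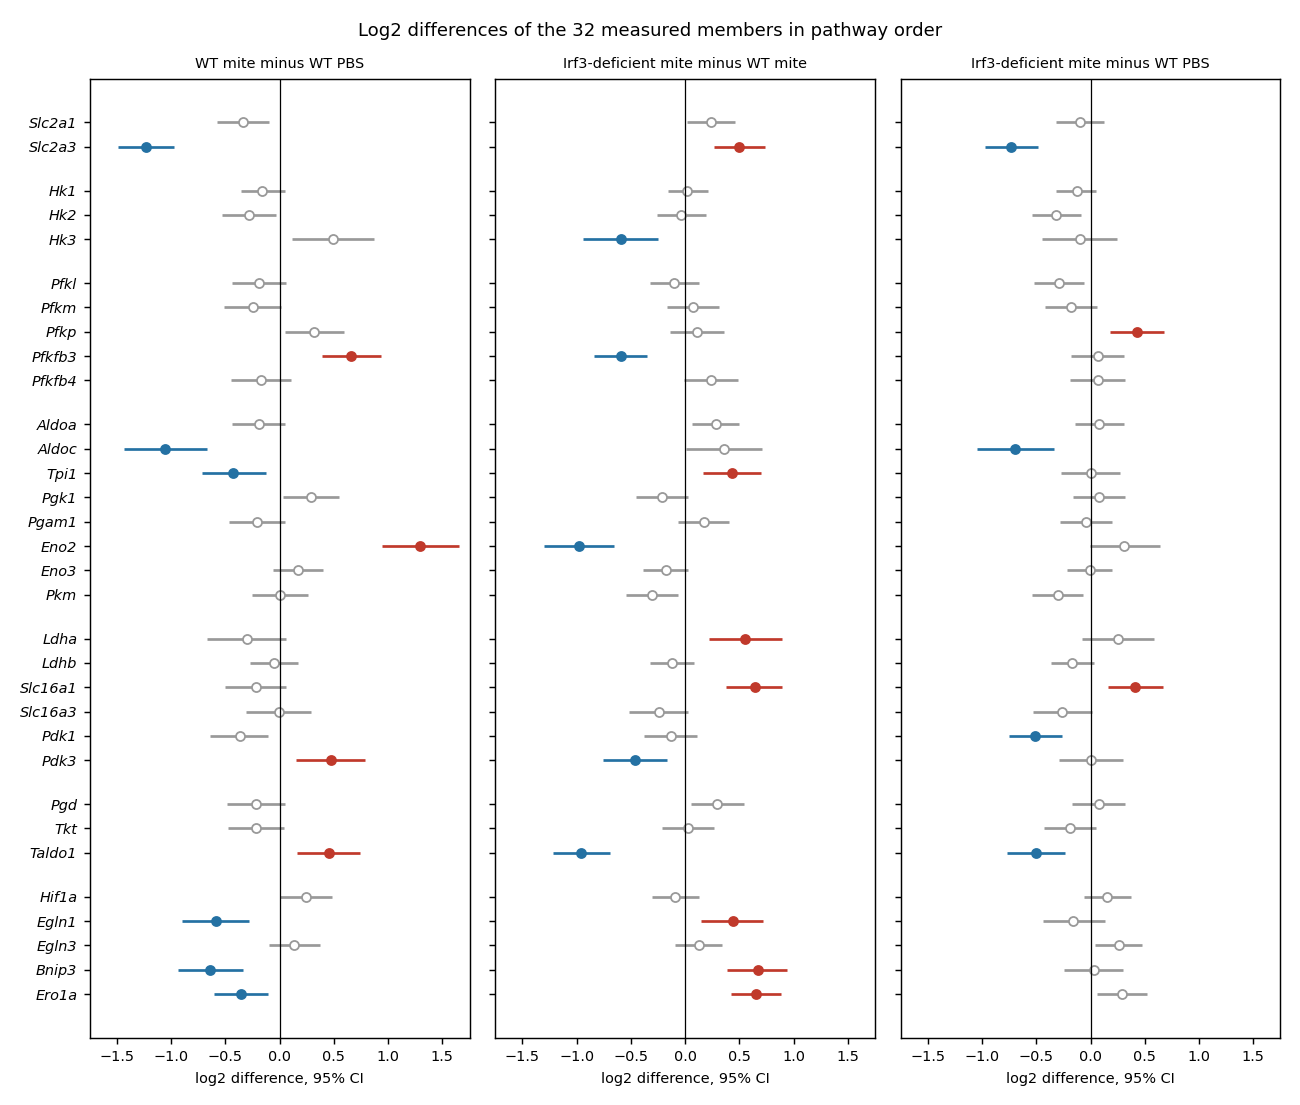
Log2 difference (x axis) of each of the 32 measured members (y axis, in pathway order with a gap between steps) in the 3 comparisons, 1 panel each, as points with 95% confidence intervals; filled red points passed as higher, filled blue points as lower, and open grey points did not pass. After mite extract in wild type cells (left) Eno2 stood farthest to the right at 1.29 and Slc2a3 farthest to the left at -1.23, and in the middle panel Taldo1 and Eno2 lay farthest to the left, at -0.96 and -0.98.

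At glucose uptake, Slc2a3, which encodes the high-affinity transporter GLUT3, gave the largest fall of the members in wild type cells. Its level was 10.94 and 10.87 after PBS, 9.71 and 9.64 after mite extract, and 10.02, 10.29 and 10.23 in treated Irf3-deficient cells. The 3 groups were separate on every array, with the Irf3-deficient arrays between the other two. The fall in wild type cells was 2.35-fold (95% CI 1.96 to 2.81, log2 -1.23 ± 0.12, adjusted p = 1.48e-05). Irf3-deficient cells were 1.42-fold above treated wild type cells (1.20 to 1.67, adjusted p = 0.00567) and 1.65-fold below PBS-treated wild type cells (1.40 to 1.95, adjusted p = 0.00129). Each of these calls held when any array was left out.

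Slc2a1, the widely expressed transporter GLUT1, stood at 11.96 and 12.18 after PBS, 11.62 and 11.83 in treated wild type cells and 11.93, 11.95 and 12.04 in Irf3-deficient cells. Its arrays after mite extract were the lowest in wild type cells, at a difference of -0.34 ± 0.11 that did not pass (adjusted p = 0.0534). It passed at -0.45 without PBS array 1 (adjusted p = 0.0483) and at -0.44 without treated wild type array 2 (adjusted p = 0.039). The genotypes differed by 0.24 ± 0.10 after treatment (adjusted p = 0.126).

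At hexose phosphorylation, the first step of glucose use in the cell, the result for Hk1 depended on the probeset. The brightest Hk1 probeset lay at 13.51 and 13.60 after PBS, 13.51 and 13.29 in treated wild type cells and 13.35, 13.51 and 13.40 in Irf3-deficient cells, and its groups overlapped in all 3 comparisons. This probeset lists a database record and no RefSeq transcript, and the same record is listed for 16 probesets that name the ribosomal protein gene Rpl17, so it is uncertain that it measures Hk1. The other Hk1 probeset lists RefSeq transcripts and gave 10.06 and 10.05 after PBS, 10.30 and 10.48 in treated wild type cells and 9.81, 9.70 and 9.84 in Irf3-deficient cells. On it the treated wild type arrays were the highest and the Irf3-deficient arrays the lowest, with no overlap.

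On that probeset Hk1 was 1.52-fold lower in Irf3-deficient than in wild type cells after mite extract (log2 -0.61 ± 0.10, adjusted p = 0.0012), against 0.02 ± 0.09 on the brightest probeset (adjusted p = 0.924). The difference after mite extract in wild type cells was 0.33 ± 0.11 (adjusted p = 0.068), against -0.16 ± 0.09 on the brightest probeset (adjusted p = 0.321). The probeset with RefSeq transcripts was chosen after its values had been seen, and Hk1 is not counted among the members that passed.

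**Figure D2:**
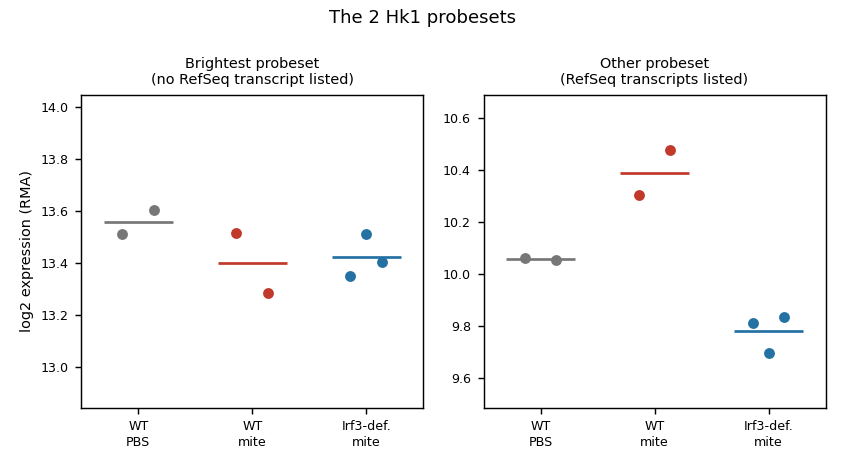
Log2 expression (y axis, each panel with its own scale) of the 2 Hk1 probesets on each array, by group (x axis), with bars at group means. The probeset with RefSeq transcripts (right) separates the groups, at 9.70 to 9.84 in Irf3-deficient and 10.30 to 10.48 in treated wild type cells, and the brightest probeset (left) overlaps between groups.

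Hk3, a hexokinase found mainly in myeloid cells, stood at 8.13 and 8.31 after PBS, 8.41 and 9.0 in treated wild type cells and 8.07, 7.98 and 8.29 in Irf3-deficient cells. The treated wild type arrays were the highest, with the widest spread of the 3 groups (SD 0.42, n = 2). Hk3 was 1.51-fold lower in Irf3-deficient than in treated wild type cells (95% CI 1.19 to 1.92, adjusted p = 0.0192). That call was lost without treated wild type array 2, at -0.30 (adjusted p = 0.287), and without Irf3-deficient array 2, at -0.52 (adjusted p = 0.0736). Its difference after mite extract, 0.49 ± 0.17, did not pass (adjusted p = 0.0794) but did at 0.78 without treated wild type array 1 (adjusted p = 0.0056).

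Hk2, the hexokinase known as a target of growth and hypoxia signals, stood at 10.70 and 10.78 after PBS, 10.38 and 10.55 in treated wild type cells and 10.34, 10.49 and 10.45 in Irf3-deficient cells. Both treated groups lay below the PBS arrays, by -0.28 ± 0.11 (adjusted p = 0.125) and -0.32 ± 0.10 (adjusted p = 0.0754), and neither passed. The treated genotypes overlapped, with a difference of -0.04 and a 95% interval from -0.26 to 0.19.

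At the phosphofructokinase step, the main control point of glycolysis, the regulator Pfkfb3 moved and the liver- and muscle-type enzyme subunits did not pass. Pfkfb3 makes fructose 2,6-bisphosphate, the activator of phosphofructokinase. It stood at 10.88 and 10.93 after PBS, 11.62 and 11.51 in treated wild type cells and 10.79, 11.16 and 10.97 in Irf3-deficient cells, so that only the treated wild type arrays were high. It rose 1.58-fold after mite extract in wild type cells (95% CI 1.31 to 1.91, adjusted p = 0.00255) and was 1.51-fold lower in Irf3-deficient than in treated wild type cells (1.27 to 1.79, adjusted p = 0.00253). Treated Irf3-deficient and PBS-treated wild type cells overlapped, at a difference of 0.07 (95% CI -0.18 to 0.31). Both calls held when any array was left out.

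Pfkp, the platelet-type phosphofructokinase, stood at 11.24 and 11.41 after PBS, 11.75 and 11.55 in treated wild type cells and 11.57, 11.86 and 11.84 in Irf3-deficient cells. Both treated groups lay above the PBS arrays without overlap. The difference in wild type cells was 0.32 ± 0.12 (adjusted p = 0.107), and that of treated Irf3-deficient from PBS-treated wild type cells was 1.35-fold (95% CI 1.14 to 1.60, adjusted p = 0.0298). The latter call was lost without any of 4 arrays, at 0.35 without PBS array 1 (adjusted p = 0.263), 0.52 without PBS array 2 (0.06), 0.38 without Irf3-deficient array 2 (0.115) and 0.39 without Irf3-deficient array 3 (0.106).

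Pfkl and Pfkm, the liver- and muscle-type subunits, and Pfkfb4, a second enzyme of the Pfkfb family, passed in no comparison. Pfkl stood at 9.21 and 9.20 after PBS, 9.08 and 8.95 in treated wild type cells and 8.86 to 9.01 in Irf3-deficient cells. Pfkm stood at 7.96 and 8.23, at 7.84 on both treated wild type arrays, and at 7.85 to 7.99. Pfkfb4 stood at 9.40 and 9.51, 9.42 and 9.15, and 9.44 to 9.58, and its difference after mite extract was -0.17 (95% CI -0.45 to 0.10), where that of Pfkfb3 was 0.66 (0.39 to 0.93).

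In lower glycolysis, isozymes of the same reaction differed in what they did. Aldoc, an aldolase best known from brain, stood at 10.01 and 10.43 after PBS, 9.44 and 8.90 in treated wild type cells and 9.49, 9.63 and 9.46 in Irf3-deficient cells. The PBS arrays were above all treated arrays. It fell 2.08-fold after mite extract in wild type cells (95% CI 1.59 to 2.72, log2 -1.06 ± 0.18, adjusted p = 0.00113), and the call held when any array was left out, at -1.32 to -0.79. In Irf3-deficient cells it was 1.62-fold below PBS-treated wild type cells (1.27 to 2.07, adjusted p = 0.0158), a call lost without PBS array 2, at -0.49 (adjusted p = 0.158), and without Irf3-deficient array 3, at -0.67 (adjusted p = 0.0537). The treated genotypes differed by 0.36 ± 0.16 (adjusted p = 0.164), which passed at 0.63 without treated wild type array 1 (adjusted p = 0.0196).

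Aldoa, the main aldolase of most cells, stood at 12.28 and 12.49 after PBS, 12.31 and 12.07 in treated wild type cells and 12.45, 12.39 and 12.57 in Irf3-deficient cells. Its wild type groups overlapped, with a difference of -0.19 (95% CI -0.44 to 0.05), and it passed in no comparison. Without treated wild type array 1 the genotypes differed by 0.40 (adjusted p = 0.0367), against 0.28 with all arrays (adjusted p = 0.0802).

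Tpi1, triosephosphate isomerase, stood at 10.91 and 11.20 after PBS, 10.75 and 10.51 in treated wild type cells and 11.20, 10.93 and 11.05 in Irf3-deficient cells. The treated wild type arrays were the lowest, and the other groups overlapped. It fell 1.35-fold after mite extract (95% CI 1.10 to 1.65, adjusted p = 0.0477) and was 1.35-fold higher in Irf3-deficient than in treated wild type cells (1.12 to 1.63, adjusted p = 0.0268). The fall was lost without PBS array 2, at -0.28 (adjusted p = 0.278), and without treated wild type array 2, at -0.31 (0.281). The genotype call was lost without treated wild type array 2, at 0.31 (0.233), without Irf3-deficient array 1, at 0.36 (0.0711), and without Irf3-deficient array 3, at 0.44 (0.0631). Tpi1 passed in neither comparison with cyclic loess, and after centring on array medians the fall did not pass.

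Eno2, an enolase best known from neurons, gave the largest rise of the members. It stood at 9.01 and 8.61 after PBS, 9.92 and 10.28 in treated wild type cells and 9.21, 8.95 and 9.20 in Irf3-deficient cells. The treated wild type arrays stood above all others, and the PBS and Irf3-deficient arrays overlapped. It rose 2.45-fold after mite extract (95% CI 1.92 to 3.13, log2 1.29 ± 0.16, adjusted p = 0.000119) and was 1.97-fold lower in Irf3-deficient than in treated wild type cells (1.58 to 2.47, log2 -0.98 ± 0.15, adjusted p = 0.000487). Treated Irf3-deficient cells differed from PBS-treated wild type cells by 0.31 ± 0.15 (adjusted p = 0.235). Both calls held when any array was left out.

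Eno3, the muscle-type enolase, passed in no comparison and stood at 11.37 and 11.16 after PBS, 11.45 and 11.42 in treated wild type cells and 11.21 to 11.29 in Irf3-deficient cells. Its difference after mite extract was 0.17 (95% CI -0.06 to 0.40). Pkm, the pyruvate kinase of most tissues, had the same mean of 11.13 in both wild type groups and stood at 10.70, 10.78 and 11.00 in Irf3-deficient cells. The Irf3-deficient arrays were the lowest, by -0.31 ± 0.11 against treated wild type cells (adjusted p = 0.0716), which passed at -0.39 without Irf3-deficient array 3 (adjusted p = 0.0353). The Pkm probeset with RefSeq transcripts gave -0.15 ± 0.11 (adjusted p = 0.435).

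Pgk1 and Pgam1, the kinase and mutase between aldolase and enolase, passed in no comparison. Each has probesets with identical values, and both have near-identical copies in the genome, so their values are uncertain as to the copy. Pgk1 stood at 11.28 and 11.27 after PBS, 11.43 and 11.70 in treated wild type cells and 11.23 to 11.47 in Irf3-deficient cells, and passed as higher after mite extract without treated wild type array 1, at 0.43 (adjusted p = 0.0497). Pgam1 stood at 11.91 and 11.82, 11.49 and 11.82, and 11.74 to 11.88. Gapdh was named only by 25 probesets shared with other genes, at 13.65 to 14.36, with untested differences of 0.04 to 0.08 after mite extract and 0.09 to 0.17 between treated genotypes.

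**Figure D3:**
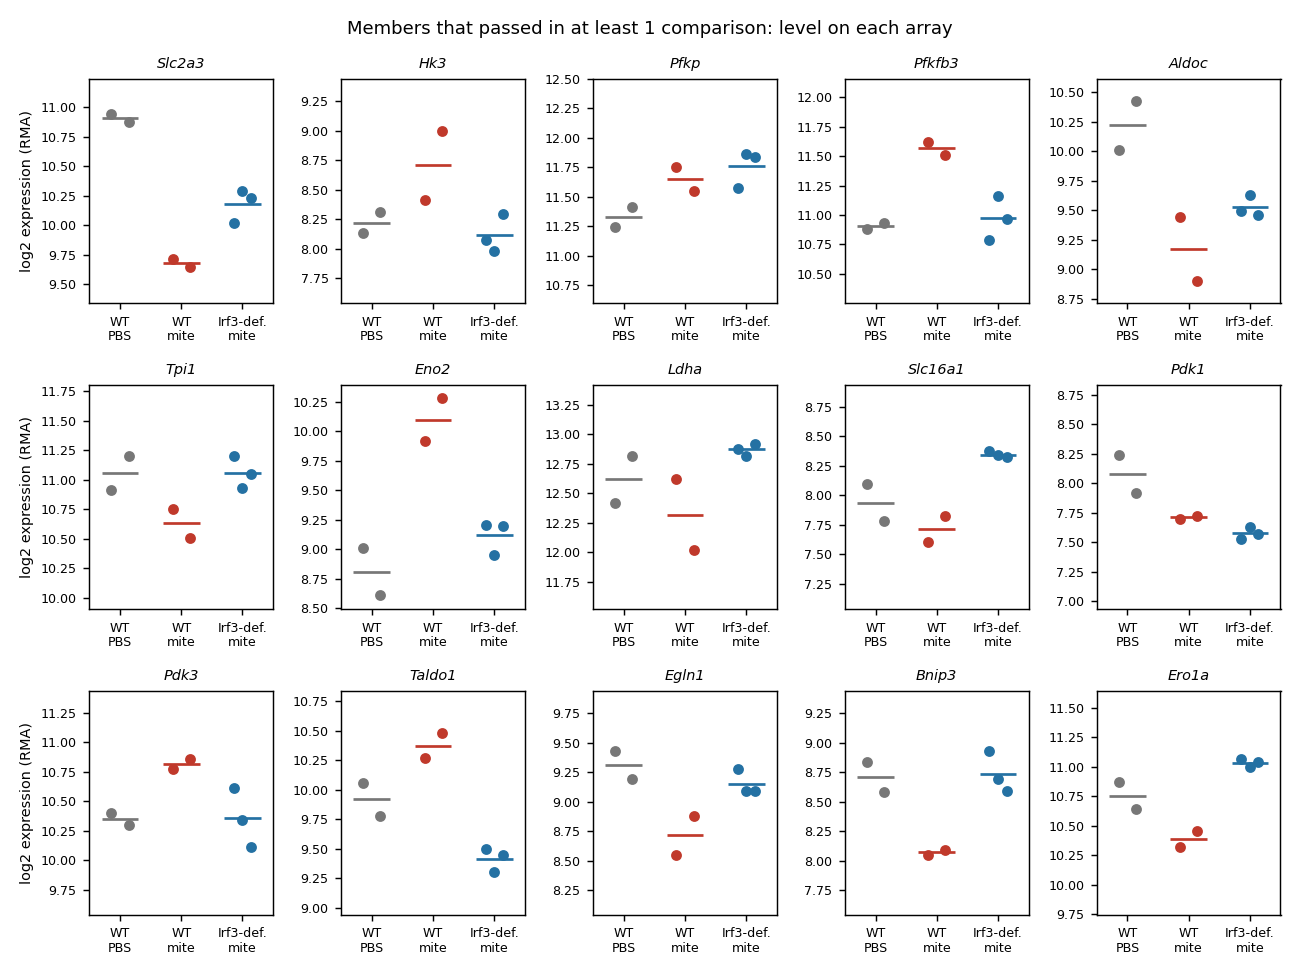
Log2 expression (y axis) on each array of the 15 members that passed in at least 1 comparison, by group (x axis), with bars at group means and a scale of its own in each panel. Pfkfb3 and Eno2 are highest in treated wild type cells, Bnip3, Egln1 and Ero1a are lowest there, and Slc2a3 has all 3 groups apart.

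At the fate of pyruvate, a gene of lactate formation (Ldha) and a gene of its transport (Slc16a1) were higher without Irf3, and their relatives Ldhb and Slc16a3 did not pass. Slc16a1, which encodes the lactate and pyruvate transporter MCT1, stood at 8.09 and 7.78 after PBS, 7.60 and 7.82 in treated wild type cells and 8.37, 8.34 and 8.32 in Irf3-deficient cells. The Irf3-deficient arrays lay above all wild type arrays, and the wild type groups overlapped. It was 1.55-fold higher in Irf3-deficient than in treated wild type cells (95% CI 1.30 to 1.86, adjusted p = 0.00203), a call that held when any array was left out. It was 1.33-fold above PBS-treated wild type cells (1.11 to 1.59, adjusted p = 0.0422). That call was lost without PBS array 2, at 0.26 (adjusted p = 0.259), and without Irf3-deficient array 1, 2 or 3, at 0.40 to 0.43 (adjusted p = 0.09, 0.11 and 0.089).

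Ldha, the lactate dehydrogenase subunit that favours lactate formation, stood at 12.42 and 12.82 after PBS, 12.62 and 12.02 in treated wild type cells and 12.88, 12.82 and 12.92 in Irf3-deficient cells. The treated wild type arrays differed from each other by more than any other pair of that gene's replicates. Ldha was 1.47-fold higher in Irf3-deficient than in treated wild type cells (95% CI 1.16 to 1.85, adjusted p = 0.0226), which was lost at 0.25 without treated wild type array 2 (adjusted p = 0.297) and at 0.53 without Irf3-deficient array 3 (0.0621). The difference after mite extract, -0.30 ± 0.17, did not pass (adjusted p = 0.276) but did at -0.60 without treated wild type array 1 (adjusted p = 0.0115). The result for Ldha therefore rested on the treated wild type array kept.

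Ldhb, the subunit that favours pyruvate formation, and Slc16a3, the lactate exporter MCT4, passed in no comparison. Ldhb stood at 7.19 and 7.24 after PBS, 7.17 and 7.15 in treated wild type cells and 6.98 to 7.09 in Irf3-deficient cells. A second Ldhb probeset stood at 6.812 and 7.218, 7.23 and 6.70, and 6.682 to 6.765. Slc16a3 stood at 10.53 and 10.45, 10.40 and 10.56, and 10.04 to 10.45, with a difference between treated genotypes of -0.24 (95% CI -0.52 to 0.03), where that of Slc16a1 was 0.64 (0.38 to 0.89).

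The pyruvate dehydrogenase kinases, which keep pyruvate out of the mitochondrial cycle, differed from each other. Pdk3 stood at 10.40 and 10.30 after PBS, 10.77 and 10.86 in treated wild type cells and 10.61, 10.34 and 10.11 in Irf3-deficient cells, and the treated wild type arrays were above all others. It rose 1.38-fold after mite extract (95% CI 1.11 to 1.73, adjusted p = 0.0457) and was 1.38-fold lower in Irf3-deficient than in treated wild type cells (1.13 to 1.69, adjusted p = 0.0278). The rise was lost when any of the 4 wild type arrays was left out, at 0.51 without PBS array 1 or treated wild type array 1 and 0.42 without PBS array 2 or treated wild type array 2 (adjusted p = 0.0773 to 0.181). The genotype call was lost without treated wild type array 1 (-0.51, adjusted p = 0.0604) or 2 (-0.42, 0.149) and without Irf3-deficient array 2 (-0.46, 0.0765) or 3 (-0.34, 0.101).

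Pdk1, the kinase known as a Hif1 target, stood at 8.24 and 7.92 after PBS, 7.70 and 7.72 in treated wild type cells and 7.53, 7.63 and 7.57 in Irf3-deficient cells. Both treated groups lay below the PBS arrays. Treated Irf3-deficient cells were 1.42-fold below PBS-treated wild type cells (95% CI 1.20 to 1.68, adjusted p = 0.0126), which was lost at -0.34 without PBS array 1 (adjusted p = 0.148). The difference within wild type cells was -0.37 ± 0.12 (adjusted p = 0.0554), which passed at -0.54 without PBS array 2 (adjusted p = 0.0165). The treated genotypes differed by -0.13 (95% CI -0.38 to 0.11).

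In the pentose phosphate pathway, Taldo1 gave the lowest adjusted p of the members between treated genotypes. Taldo1 is transaldolase, which links the pathway's sugars back to glycolysis. It stood at 10.06 and 9.78 after PBS, 10.27 and 10.48 in treated wild type cells and 9.50, 9.30 and 9.45 in Irf3-deficient cells, so that all 3 groups were apart, with the Irf3-deficient arrays lowest. It was 1.94-fold lower in Irf3-deficient than in treated wild type cells (95% CI 1.61 to 2.33, log2 -0.96 ± 0.12, adjusted p = 0.000143), at -1.06 to -0.85 when any array was left out.

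Taldo1 rose 1.37-fold after mite extract in wild type cells (95% CI 1.12 to 1.68, adjusted p = 0.0347), which was lost at 0.31 without PBS array 2 (adjusted p = 0.217) and at 0.35 without treated wild type array 2 (0.221). Treated Irf3-deficient cells were 1.42-fold below PBS-treated wild type cells (1.18 to 1.71, adjusted p = 0.0198), which was lost at -0.36 without PBS array 1 (adjusted p = 0.227) and at -0.45 without Irf3-deficient array 2 (0.0853). The other measured enzymes of the pathway passed in no comparison. Pgd, which makes NADPH in the oxidative branch, stood at 11.65 and 11.93 after PBS, 11.58 and 11.56 in treated wild type cells and 11.76 to 12.04 in Irf3-deficient cells. Tkt, transketolase, which works beside transaldolase, stood at 10.52 and 10.38, 10.22 and 10.24, and 10.13 to 10.40, and its treated genotypes differed by 0.03 (95% CI -0.21 to 0.27).

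Among the hypoxia genes, 3 of 5 measured members fell after mite extract in wild type cells, against 9.23% of all genes, and the same 3 were higher in Irf3-deficient than in treated wild type cells, against 10.7% of all genes. These comparisons share the treated wild type arrays. Bnip3, a mitochondrial protein of mitophagy and cell death, stood at 8.84 and 8.58 after PBS, 8.05 and 8.09 in treated wild type cells and 8.93, 8.69 and 8.59 in Irf3-deficient cells. Only the treated wild type arrays were low. It fell 1.56-fold (95% CI 1.26 to 1.92, adjusted p = 0.0061), a call lost at -0.51 without PBS array 1 (adjusted p = 0.0663). It was 1.59-fold higher in Irf3-deficient than in treated wild type cells (1.31 to 1.92, adjusted p = 0.00236) and kept that call when any array was left out. Its difference between treated Irf3-deficient and PBS-treated wild type cells was 0.03 (95% CI -0.25 to 0.30). A second, dimmer Bnip3 probeset also had its lowest arrays in treated wild type cells, at 7.546 and 7.395. It stood at 7.918 and 7.993 after PBS and at 7.712 to 8.013 in Irf3-deficient cells.

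Ero1a, the oxidase that forms disulfide bonds in the endoplasmic reticulum, stood at 10.87 and 10.64 after PBS, 10.32 and 10.46 in treated wild type cells and 11.07, 11.00 and 11.04 in Irf3-deficient cells. All 3 groups were apart, with the treated wild type arrays lowest and the Irf3-deficient arrays highest. It was 1.57-fold higher in Irf3-deficient than in treated wild type cells (95% CI 1.34 to 1.84, adjusted p = 0.000778) and kept that call when any array was left out. The fall in wild type cells was 1.29-fold (1.08 to 1.53, adjusted p = 0.0475). It was lost at -0.25 without PBS array 1 (adjusted p = 0.311), -0.29 without treated wild type array 1 (0.213) and -0.43 without treated wild type array 2 (0.0675), and also with arrays centred on their medians and with cyclic loess.

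Egln1, the prolyl hydroxylase PHD2 and itself a Hif1 target, stood at 9.43 and 9.19 after PBS, 8.55 and 8.88 in treated wild type cells and 9.28, 9.09 and 9.09 in Irf3-deficient cells. The treated wild type arrays were the lowest, and the other groups overlapped. It fell 1.51-fold (95% CI 1.22 to 1.87, adjusted p = 0.0115), lost at -0.47 without PBS array 1 (adjusted p = 0.107) and at -0.43 without treated wild type array 1 (0.1). It was 1.35-fold higher in Irf3-deficient than in treated wild type cells (1.11 to 1.65, adjusted p = 0.0324). That call was lost at 0.27 without treated wild type array 1 (adjusted p = 0.302), at 0.37, 0.47 and 0.47 without Irf3-deficient arrays 1, 2 and 3 (0.0919, 0.06 and 0.0532), and with either other scaling of the arrays.

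Hif1a, the oxygen-regulated factor, and Egln3, the prolyl hydroxylase PHD3, passed in no comparison. Hif1a stood at 12.12 and 12.00 after PBS, 12.15 and 12.45 in treated wild type cells and 12.17 to 12.27 in Irf3-deficient cells. Its difference after mite extract was 0.24 ± 0.11 (adjusted p = 0.173), which passed at 0.39 without treated wild type array 1 (adjusted p = 0.0354). The Hif1a protein, which is controlled by its breakdown, was not measured. Egln3 stood at 6.69 and 6.70, 6.74 and 6.92, and 6.89 to 7.04, and no detection call accompanied the values.

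The summed level of the macrophage-type genes given above was lowest in treated wild type cells, as were the group means of Itgam, Ccr2, Clec10a and Mgl2 and those of Slc2a3, Aldoc, Tpi1, Bnip3, Egln1 and Ero1a. Neither marker list moved as one. Zbtb46, a marker of the sorted cell, moved by 0.38 after mite extract (adjusted p = 0.0403) and -0.49 between treated genotypes (adjusted p = 0.00539). The macrophage-type genes Fcgr1 and Plac8 were highest in treated wild type cells, at means of 10.80 and 12.18. The part of the marker shifts in the members' results was not tested.

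Lists of neighbouring genes show what lay around the members, and their shares are read against 17.6% of all genes after mite extract and 19.7% between treated genotypes, or 23.8% and 26.9% of the genes at or above the 30th percentile of mean level. Of 20 other isozymes and regulators of glycolysis, 0 rose and 5 fell after mite extract (25%), and 3 were higher and 0 lower in Irf3-deficient than in treated wild type cells (15.0%). Slc16a7, the high-affinity pyruvate and lactate transporter MCT2, stood at 9.56 and 9.76 after PBS, 8.67 and 8.43 in treated wild type cells and 9.98, 9.81 and 9.52 in Irf3-deficient cells. It fell by 1.11 after mite extract (log2 scale, adjusted p = 0.000282) and was higher without Irf3 by 1.22 (adjusted p = 6.8e-05), so that its treated wild type arrays were the low ones, as for Bnip3. G6pc3, a glucose 6-phosphatase, was also low only there, at -0.64 (adjusted p = 0.0024) and 0.59 (adjusted p = 0.00211).

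Of 18 genes of hexose side routes and glycogen, 3 rose and 3 fell after mite extract (33.3%, against 17.6% of all genes), and 4 were higher and 1 lower in Irf3-deficient than in treated wild type cells (27.8%, against 19.7%). Gfpt1, which draws fructose 6-phosphate into the hexosamine pathway, rose by 0.51 (adjusted p = 0.0211) and was lower without Irf3, at -0.77 (adjusted p = 0.000866). Of 12 other pentose phosphate and ribose genes, 0 rose and 2 fell after mite extract (16.7%), and 3 were higher and 1 lower without Irf3 (33.3%). Prps2, which makes the ribose donor of nucleotide synthesis, fell by 0.79 (adjusted p = 0.00113) and was higher without Irf3 by 0.79 (adjusted p = 0.000507). Pgls, the lactonase of the oxidative branch, was lower without Irf3, at -0.44 (adjusted p = 0.011).

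At the entry into mitochondria, 2 of 12 genes of pyruvate dehydrogenase and its regulators rose and 1 fell after mite extract (25%, against 17.6% of all genes), and 1 was higher and 2 lower without Irf3 (25%, against 19.7%). Pdk2, a further kinase of the complex, fell by 1.08 (adjusted p = 9.77e-05) and was higher without Irf3 by 0.66 (adjusted p = 0.00188), opposite in sign to Pdk3. The phosphatase Pdp2, which reverses the kinases, rose by 0.50 (adjusted p = 0.00599) and was lower without Irf3, at -0.50 (adjusted p = 0.00332). Of 22 genes of the tricarboxylic acid cycle, 0 rose and 6 fell after mite extract (27.3%, against 23.8% of genes at or above the 30th percentile), and 6 were higher and 2 lower without Irf3 (36.4%, against 26.9%). The median differences were -0.13 and 0.20, against 0.03 and 0.00 over all genes. Idh3a, a subunit of isocitrate dehydrogenase, stood at 10.34 and 10.33 after PBS, 9.88 and 9.83 in treated wild type cells and 10.66, 10.85 and 10.90 in Irf3-deficient cells, a genotype difference of 0.95 (adjusted p = 4.55e-05).

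Of 33 measured hypoxia targets outside the members, 4 rose and 4 fell after mite extract (24.2%, against 17.6% of all genes and 23.8% of those at or above the 30th percentile), and 4 were higher and 3 lower without Irf3 (21.2%, against 19.7% and 26.9%). These shares lay near those of all genes. Ndrg1, a stress- and hypoxia-induced gene, stood at 9.96 and 10.35 after PBS, 12.32 and 12.25 in treated wild type cells and 11.01, 11.23 and 11.41 in Irf3-deficient cells. All 3 groups were apart, with a rise of 2.13 in wild type cells (adjusted p = 6.62e-07) and a difference of -1.07 between treated genotypes (adjusted p = 0.000132). Bnip3l, the relative of Bnip3, moved as Bnip3 did, with a fall of 0.53 (adjusted p = 0.0129) and a genotype difference of 0.70 (adjusted p = 0.00116).

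Of 8 further hypoxia factors, 1 rose and 1 fell after mite extract (25%, against 17.6% of all genes), and 1 was higher and 2 lower without Irf3 (37.5%, against 19.7%). Cited2, which competes with Hif1a for a co-activator, rose by 1.46 (adjusted p = 1.71e-05) and was lower without Irf3, at -1.0 (adjusted p = 0.000188). Epas1, which encodes Hif2a, fell by 1.05 (adjusted p = 0.00187). Hif1an, an oxygen sensor that inhibits Hif1a, was lower without Irf3, at -0.63 (adjusted p = 0.0011). Of 19 growth and nutrient regulators of glycolysis, 5 rose and 4 fell after mite extract (47.4%, against 17.6% of all genes), and 4 were higher and 2 lower without Irf3 (31.6%, against 19.7%). Myc, which drives many glycolytic genes, fell by 0.80 (adjusted p = 0.00149), and Mtor, the nutrient-sensing kinase, rose by 0.60 (adjusted p = 0.00304).

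**Figure D4:**
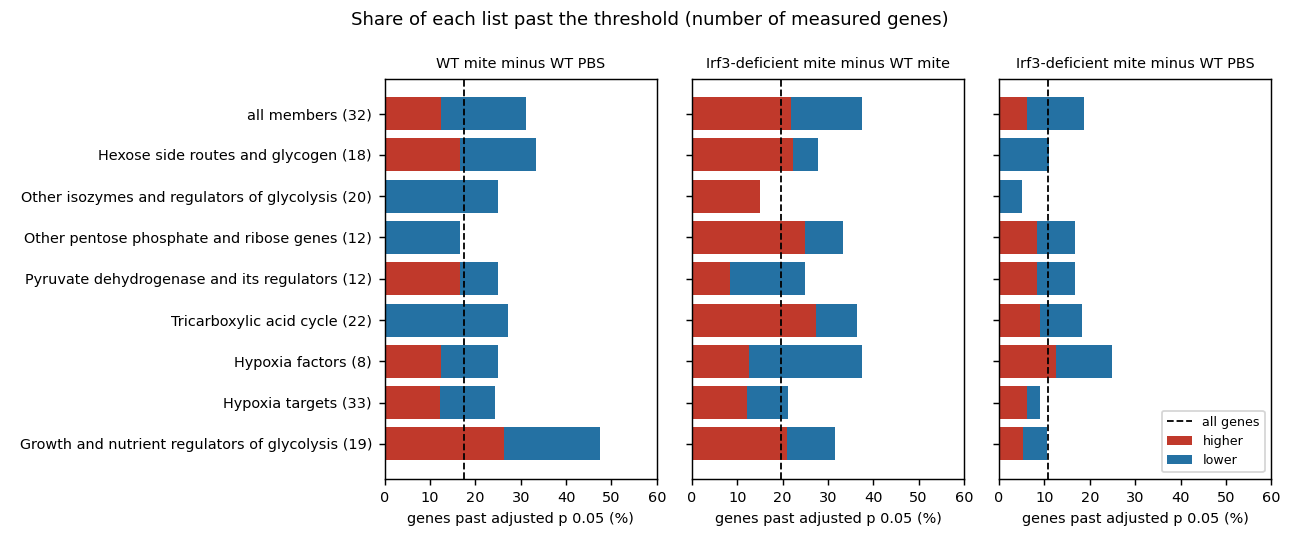
Share of the measured genes of each list (x axis, percent) that passed as higher (red) or lower (blue) in each comparison, 1 panel each, with the number of measured genes behind each list name; the dashed line is the share of all genes that passed in either direction. Members reach 31.2%, 37.5% and 18.8%, against lines at 17.6%, 19.7% and 10.8%. Of genes at or above the 30th percentile of mean level, 23.8%, 26.9% and 14.8% passed.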

How the data were processed

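The 7 arrays (Affymetrix Mouse Gene 1.0 ST) were deposited as log2 expression values for 35556 probesets. R 3.2.1, oligo and RMA are named, with no role or order, per the submitters' processing notes, and RMA, as a quantile method, hides any change that most genes share. Genome build, detection calls and batches were not given in the sources used here. The platform annotation gave 1 symbol to 21789 probesets, several to 1621 and none to 12146. Of 19938 genes, 999 had several probesets, and 19856 matched a RefSeq table (GRCm38.p6), which also supplied the promoters.

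A linear model with a mean for each group was fitted to all 7 arrays in limma 3.58.1 (R 4.3.3; lmFit, eBayes with an intensity trend), with 4 residual and 8.34 prior degrees of freedom. Tests were two-sided with a threshold of 0.05, and the fit was checked on simulated data. Arrays of a group are separate pools of mice. The p-values rest on a gene's spread between so few pools and, for the larger part, on the spread shared over all genes. The labels' replicate numbers were not used as pairs.

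The members and gene lists were chosen with earlier results of these data known. The named genes are all measured members, Irf3, cell type markers, and from each neighbouring list up to 2 genes per direction and comparison with the smallest p, of which the text gives some. Alternatives were other scalings, a filter on dim genes, other probesets, no intensity trend, fewer arrays, array weights, no shared variance, a replicate block and leaving out each array.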

Additional observations from a re-analysis of the deposited data

How the results depend on the processing

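Of the members' differences under all alternatives, 1323 stayed on their side of the threshold, 97 no longer passed and 15 newly passed. In 47 values the sign changed. None of these values had passed in the same comparison with all arrays and the main settings. The largest difference among them had been 0.16 in size. In 2 of these the opposite sign passed, those of Hk1 between treated genotypes, at -0.29 as the mean of both probesets (adjusted p = 0.0268) and -0.61 on the probeset with RefSeq transcripts (adjusted p = 0.0012, an alternative chosen after seeing the data). Without a variance shared between genes, 1458, 1546 and 159 genes and 1, 2 and 0 members passed in the comparisons of treated with PBS-treated wild type, treated Irf3-deficient with treated wild type, and treated Irf3-deficient with PBS-treated wild type. Leaving out 1 array gave 2333 to 3104 genes and 7 to 11 members in the first, 2562 to 3393 and 8 to 12 in the second, and 749 to 1914 and 3 to 5 in the third. The difference in Irf3 stayed between -1.39 and -1.30.

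The deviations of same-numbered arrays from their group means had correlations of -0.23 to 0.18, which gave no sign of pairing. With 2 arrays in a group these deviations mirror each other, so the check cannot decide whether the numbers pair the samples. With the replicate block, 3118, 3249 and 1426 genes and 7, 9 and 3 members passed, and crossing the numbers of treated wild type, added after seeing the data, gave 3508 genes and 8 members in the first comparison. The cause of these shifts was not tested. With 2 or 3 pools per group, small differences could not be resolved.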
